A study of Mus musculus with 7 samples.

Results

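The genes described here are 40 cell cycle and proliferation genes, of 47643 genes in a table of transcript abundance from mouse alveolar macrophages, and they were chosen by name from replication, mitosis and cyclin genes. They fall into 5 roles. These are loading and activation of the replicative helicase (11 genes), the replication fork and nucleotide supply (5 genes), G1 and S phase cyclins, kinases and E2F1 (8 genes), mitosis (14 genes) and inhibitors of cyclin-dependent kinases (2 genes). The abundance unit is TPM, reads per gene length scaled to the same sum in every library, so levels can be set side by side between genes.

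Alveolar macrophages are the resident phagocytes of the lung airspaces, and the libraries came from cells sorted as positive for CD11c, F4/80 and SiglecF. Lyz2cre (cSiah1a/2f/f::Lyz2cre, n = 3) carried floxed Siah1a and Siah2 and a Cre recombinase under Lyz2, the lysozyme M gene, which is active in neutrophils and monocytes as well as in macrophages. CD11ccre (cSiah1a/2f/f::CD11ccre, n = 1) carried the same floxed genes with Cre under the promoter of CD11c, which is active in dendritic cells as well as in alveolar macrophages. The control was labelled WT (n = 3), and whether it carried floxed alleles or Cre is not given in the sources used here. The proteins of Siah1a and Siah2 attach ubiquitin to their targets as RING-type E3 ligases, and the design asks what differs in macrophages that lack both. The labels give neither age nor sex and do not tie replicates to separate animals, so the p-values reflect the spread of these libraries alone, which may be technical.

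Alveolar macrophages are seeded around birth and persist through slow local division under GM-CSF and M-CSF, with little input from blood monocytes. In a dividing cell, D cyclins bind CDK4 or CDK6 and phosphorylate RB, which frees E2F factors to transcribe the MCM helicase, its loaders and the enzymes that make deoxynucleotides. Later, CDK1 with cyclins A and B drives mitosis, whose genes are repressed in resting cells by the DREAM complex through the CHR promoter element, often next to CCAAT boxes bound by NF-Y. The inhibitors p21 (Cdkn1a) and p27 (Cdkn1b) hold the kinases back.

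Sequences around annotated start sites show how the roles differ in the letters of these elements. RefSeq windows of 300 bases (GRCm38.p6, from 250 bases before to 50 bases after a start site) were matched for 32 of the 40 genes, which have 35 windows. E2F matches were TTTCCCGC, TTTCGCGC, TTTGCCGC or TTTGGCGC, CHR matches were TTTGAA or TTCGAA, and CCAAT was searched by its own letters, all on both strands. The 250 bases before the start are given for 4 genes from 3 roles, the helicase subunit Mcm6 (chr1:128359706-128359955, minus strand), the ribonucleotide reductase subunit Rrm2 (chr12:24708004-24708253, plus strand) and the mitotic genes Top2a (chr11:99024190-99024439, minus strand) and Cdk1 (chr10:69352913-69353162, minus strand). They are written 5′ to 3′ on the gene's strand, with every match in capitals; a longer run of capitals is overlapping or adjoining matches.
Mcm6: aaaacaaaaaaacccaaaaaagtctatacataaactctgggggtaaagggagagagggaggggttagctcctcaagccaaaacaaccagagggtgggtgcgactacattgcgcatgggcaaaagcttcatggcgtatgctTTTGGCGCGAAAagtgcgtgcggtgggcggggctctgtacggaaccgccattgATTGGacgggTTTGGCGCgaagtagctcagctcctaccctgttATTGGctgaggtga
Rrm2: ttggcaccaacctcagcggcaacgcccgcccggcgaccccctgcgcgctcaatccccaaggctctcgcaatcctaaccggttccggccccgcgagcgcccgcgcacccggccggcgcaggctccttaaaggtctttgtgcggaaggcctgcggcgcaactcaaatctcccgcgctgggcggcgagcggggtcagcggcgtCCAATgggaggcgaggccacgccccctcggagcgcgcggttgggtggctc
Top2a: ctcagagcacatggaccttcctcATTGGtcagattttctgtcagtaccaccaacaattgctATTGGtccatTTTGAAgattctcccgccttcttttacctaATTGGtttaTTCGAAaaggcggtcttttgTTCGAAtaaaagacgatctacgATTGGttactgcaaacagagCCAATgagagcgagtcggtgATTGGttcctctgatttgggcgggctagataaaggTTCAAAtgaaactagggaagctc
Cdk1: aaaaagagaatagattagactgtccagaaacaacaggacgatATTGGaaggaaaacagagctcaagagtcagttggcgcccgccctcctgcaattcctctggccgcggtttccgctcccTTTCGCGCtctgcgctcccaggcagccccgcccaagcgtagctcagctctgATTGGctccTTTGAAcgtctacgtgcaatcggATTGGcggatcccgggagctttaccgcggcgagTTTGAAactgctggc
Mcm6 holds 3 E2F matches, 0 CHR matches and 2 CCAAT matches. Top2a holds 0 E2F, 4 CHR and 6 CCAAT matches, Cdk1 holds 1, 2 and 3 of these in the same order, and Rrm2 holds 1 CCAAT match and neither of the others.

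Across the roles, an E2F match stood in 6 of 9 helicase windows (66.7%), 0 of 5 fork and nucleotide windows, 1 of 6 G1 and S windows (16.7%), 1 of 12 mitosis windows (8.33%) and 0 of 3 inhibitor windows. The share over all 32851 windows was 2.26%. A CHR match stood in 10 of 12 mitosis windows (83.3%) and in 3 of 9 helicase windows, against 19.2% of all windows, and in no window of the other roles. CCAAT stood in 11 of 12 mitosis windows (91.7%) and in 7 of 9 helicase windows (77.8%), against 37.4% of all windows. A single pair of matches to different motifs overlapped, in Mcm7. A match describes letters in the window and is not evidence of binding. The windows of E2f1, Cdc6 and Mcm7 lie wholly inside the gene as annotated by GENCODE, as does a further window of Ccnd3 and of Cdkn1a. These windows may hold transcribed sequence, so a missing match there does not describe the bases before the annotated gene.

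**Figure D1:**
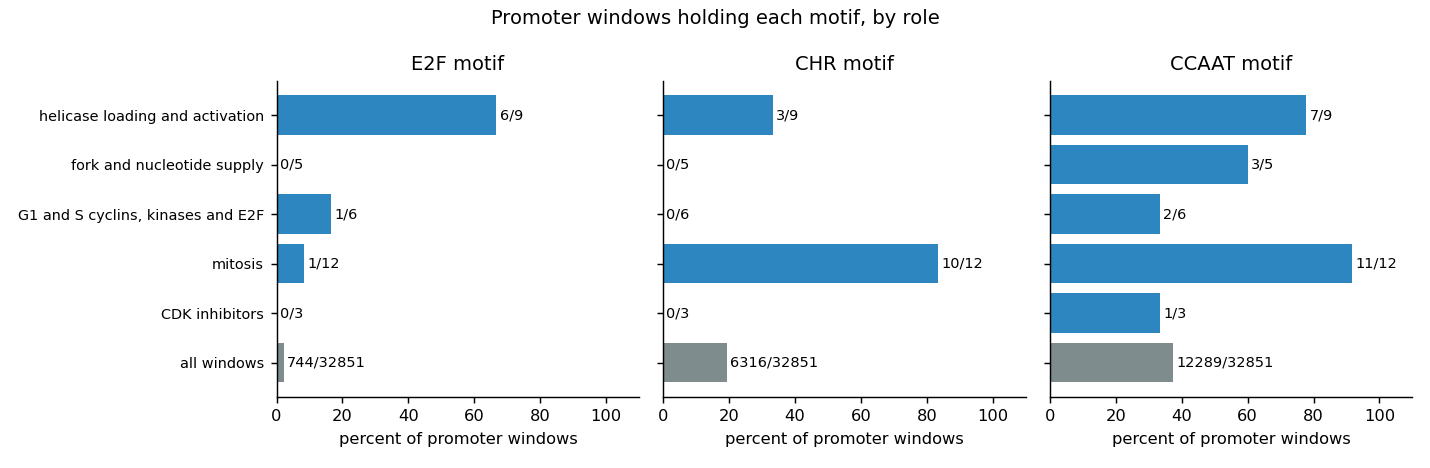
Percent of promoter windows (300 bases, x axis) that hold an E2F, CHR or CCAAT match on either strand, by role (rows), with all 32851 windows in grey and window counts beside each bar. E2F letters stand in 6 of 9 helicase windows and CHR letters in 10 of 12 mitosis windows.

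The libraries matched their labels at the targeted genes, and markers of the sorted cell type were detected. Siah1a was listed at 0, 0 and 0.05 TPM in Lyz2cre and at 0 in CD11ccre, against 16.6, 6.72 and 13.4 TPM in WT, and Siah2 stood at 1.95, 1.45 and 1.5 TPM in Lyz2cre, with 1.21 TPM in CD11ccre, against 13.6, 12.7 and 17.3 TPM in WT. All 14 alveolar macrophage markers, Siglecf, Itgax (CD11c) and Adgre1 (F4/80) among them, were detected, and they summed to 64438 to 79629 TPM in Lyz2cre, 72382 TPM in CD11ccre and 31878 to 35373 TPM in WT. Single markers differed in both directions, with 6 positive and 8 negative in Lyz2cre and 7 of each in CD11ccre. In Lyz2cre, 5 were higher and 3 lower at an adjusted p under 0.05 in limma. That is 57.1% of the markers, beside 6.76% of all genes tested. Lyz2 was listed at 46.6, 61.9 and 55.7 TPM in Lyz2cre, with 50676 TPM in CD11ccre, against 77.6, 72.6 and 86.3 TPM in WT, so that WT was near Lyz2cre and far below CD11ccre for this gene. CD11ccre and WT therefore differed in Lyz2 as well as in the Siah genes, and the reason was not tested. Ftl1, Fth1 and Chil3 together took 15.4% ± 0.939 of the TPM in Lyz2cre, 14.0% in CD11ccre and 5.06% ± 0.204 in WT (SD, n = 3 where given). In CD11ccre, the 50676 TPM of Lyz2 came on top of this share. TPM values in a library sum to a constant, so a larger share for some genes leaves less for the rest. Mitochondrially encoded genes went the other way, with 3.77% ± 0.996 in Lyz2cre, 4.23% in CD11ccre and 8.56% ± 0.902 in WT (SD, n = 3 where given). The part of these shares in the results on cell cycle genes was not tested beyond the other scalings. The median difference over all 11397 genes tested was -0.16 in Lyz2cre and -0.29 in CD11ccre on the log2(TPM + 1) scale, on which all differences here are given and which understates the change of low genes. The depth of the libraries is unknown, since TPM keeps no record of it.

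Cell cycle transcripts were detected in every genotype. In WT, 29 of the 40 genes averaged at least 10 TPM, and Pcna and Cdkn1a averaged over 100 TPM. Ccnd1 alone fell short of a mean of 1 TPM over the 7 libraries, the minimum for testing, which left 39 genes tested. In Lyz2cre against WT, 0 of 39 genes were higher and 1 was lower at an adjusted p under 0.05 (limma with Benjamini-Hochberg adjustment over all genes tested). Over all genes tested, 2.17% were called higher and 4.6% lower. At an unadjusted p under 0.05, 0 members were higher and 5 were lower (Mcm4, Gins1, Cdk2, Ccnd2 and Cenpa), which is 12.8% of the 39, beside 18.7% of all genes lower and 5.96% higher at that threshold. In CD11ccre against WT, 0 of 39 were called in either direction, with 0.895% of all genes called higher and 1.99% lower, and 2 members higher (Rrm2 and Ccnb1) and 4 lower (Mcm4, Gins1, Ccnd2 and Cdkn1b) at an unadjusted p under 0.05. These are 5.13% and 10.3% of the 39, beside 3.45% of all genes higher and 18.8% lower. The lone CD11ccre library was assumed to vary like the other groups. In bulk RNA, a different share of cells in cycle and a different level of these RNAs per cell cannot be told apart.

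The called gene was Ccnd2, which encodes cyclin D2, a partner of CDK4 and CDK6 in G1 (chromosome 6, 127125162 to 127152193, minus strand, mm10). It stood at 56.5, 67.4 and 63.5 TPM in Lyz2cre, with 57.1 TPM in CD11ccre, against 89.7, 93.4 and 107.67 TPM in WT. All 4 libraries with deleted Siah genes were below all 3 WT libraries. The mean was 62.5 ± 5.52 TPM in Lyz2cre and 96.9 ± 9.49 TPM in WT (SD, n = 3 each), which is 35.6% lower in Lyz2cre. The log2 difference of Lyz2cre against WT was -0.63 ± 0.13 (SE), with a 95% interval of -0.92 to -0.33 and an adjusted p of 0.0339 in limma. An exact permutation of the TPM means (two-sided) gave p = 0.1, the lowest value possible with 3 libraries a group. In CD11ccre the difference was -0.75 with an adjusted p of 0.0717 in limma. The Lyz2cre call held in 5 of 17 alternatives. It ended without any 1 of the 6 WT and Lyz2cre libraries (adjusted p from 0.0673 to 0.106) and under median-of-ratios scaling, where the difference was -0.44 with an adjusted p of 0.117. Ccnd2 overlaps 2 annotated transcripts on the other strand, 9330179D12Rik and Gm43126, and the strand setting of the read counting is not given in the sources used here.

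Other D cyclins and their kinase had no called difference. Ccnd3, which encodes cyclin D3, stood at 49.3, 48.1 and 52.9 TPM in Lyz2cre, with 44.5 TPM in CD11ccre, against 59.9, 61.1 and 51.0 TPM in WT, and the Lyz2cre and WT ranges overlapped. Ccnd1, which encodes cyclin D1, was listed at 0.44, 1.49 and 0.62 TPM in Lyz2cre, with 0.86 TPM in CD11ccre, against 1.01, 0 and 1.3 TPM in WT. Cyclin D2 was thus the most abundant D cyclin by TPM in all 7 libraries, with D3 next and D1 near 0. Cdk4, the kinase they bind, stood at 106, 107.54 and 101.38 TPM in Lyz2cre, with 126 TPM in CD11ccre, against 74.1, 115 and 71.2 TPM in WT. The WT libraries spanned the Lyz2cre values, and the difference of 0.31 (95% interval -0.13 to 0.75) had an adjusted p of 0.361 in limma. Of the 7 tested genes of this role, 1 difference was positive and 6 were negative in Lyz2cre, with a median of -0.22, against -0.16 over all genes tested. Cdk2, the kinase of cyclins E and A and chosen after its values were seen, stood at 15.8, 13.5 and 10.1 TPM in Lyz2cre, with 12.7 TPM in CD11ccre, against 22.3, 20.6 and 16.8 TPM in WT. Its Lyz2cre and WT values did not overlap, and the adjusted p was 0.136 in limma. Ccne1, Ccne2 and E2f1, which encode cyclins E1 and E2 and the transcription factor E2F1, were not called, and Ccne2 had the widest difference of all members in Lyz2cre (-0.97, 95% interval -1.95 to 0.02) with 1 WT library at 11.1 TPM and the other two at 3.45 and 4.13 TPM.

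**Figure D2:**
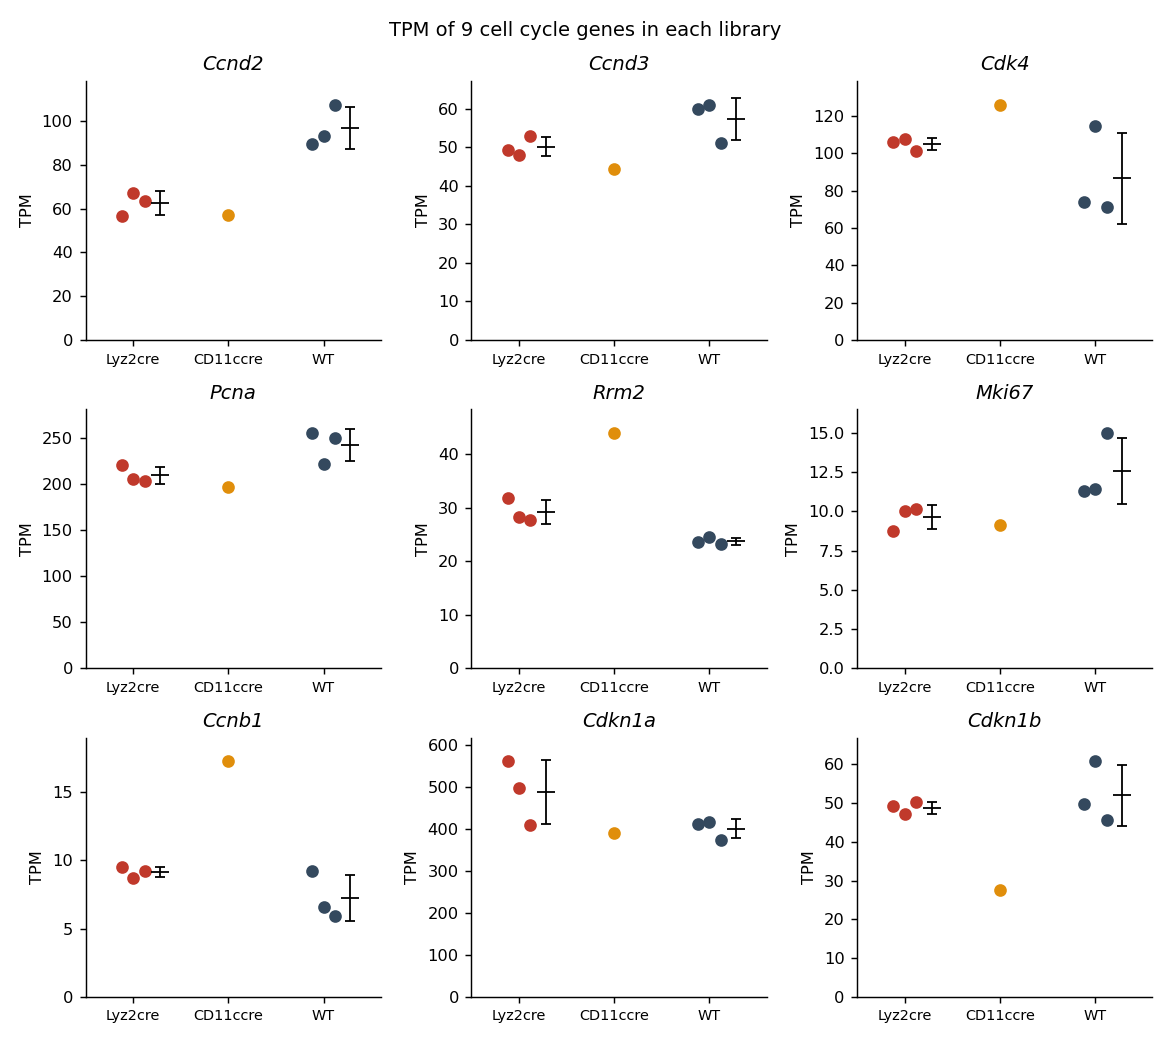
TPM (y axis, from 0) of 9 cell cycle genes in every library of Lyz2cre (n = 3), CD11ccre (n = 1) and WT (n = 3); points are libraries, and bars beside them are the mean and SD where n = 3. Ccnd2 lies between 56.5 and 67.4 TPM in Lyz2cre and at or above 89.7 TPM in WT, while Ccnb1 and Rrm2 are highest in the CD11ccre library.

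No helicase gene passed the test. Mcm3, a subunit of the MCM2 to MCM7 ring that unwinds DNA, stood at 46.6, 50.9 and 36.2 TPM in Lyz2cre, with 40.7 TPM in CD11ccre, against 37.9, 43.9 and 40.7 TPM in WT. Mcm6, another ring subunit and the one whose promoter is printed above, stood at 22.5, 29.0 and 31.7 TPM in Lyz2cre, with 38.1 TPM in CD11ccre, against 34.9, 40.2 and 25.2 TPM in WT. Mcm7 stood at 31.6, 27.7 and 23.2 TPM in Lyz2cre, with 33.8 TPM in CD11ccre, against 26.2, 20.4 and 23.1 TPM in WT. The Lyz2cre and WT ranges of all 3 overlapped. Of the 11 helicase genes, 5 differences were positive and 6 negative in Lyz2cre, with a median of -0.05, and 4 were positive and 7 negative in CD11ccre, with a median of -0.06. Over all 7 libraries, the ring subunits Mcm2 and Mcm5 ran from 8.96 to 14.2 TPM and from 5.51 to 11.9 TPM. The loaders Cdc6 and Cdt1 ran from 1.41 to 4.74 TPM and from 13.6 to 18.3 TPM. The activators Cdc45 and Gins2 ran from 2.22 to 5.65 TPM and from 10.97 to 26.2 TPM, and for none of these 6 genes did the Lyz2cre and WT libraries separate.

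Mcm4 and Gins1 had the lowest p of this role and are named after their values were seen. Mcm4, a ring subunit, stood at 14.4, 17.1 and 16.4 TPM in Lyz2cre, with 13.5 TPM in CD11ccre, against 19.4, 21.6 and 21.1 TPM in WT. Gins1, a subunit of the GINS complex that activates the helicase with CDC45, stood at 9.26, 9.74 and 8.12 TPM in Lyz2cre, with 6.40 TPM in CD11ccre, against 14.1, 14.8 and 10.1 TPM in WT. Neither gene's WT values overlapped those of the Cre lines. The adjusted p in limma was 0.174 for Mcm4 and 0.190 for Gins1 in Lyz2cre, and 0.151 and 0.117 in CD11ccre.

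Genes of the replication fork and of nucleotide supply were not called either. Pcna, the sliding clamp that holds DNA polymerase on its template, was the most abundant replication gene, at 221, 205 and 203 TPM in Lyz2cre, with 197 TPM in CD11ccre, against 256, 222 and 250.2 TPM in WT. The WT values lay above those of both Cre lines, and the difference in Lyz2cre was -0.21 (95% interval -0.45 to 0.03, adjusted p = 0.261 in limma), close to the median of all genes. Its near-identical copy Pcna-ps2 was listed at 0.28, 1.00 and 0.50 TPM in Lyz2cre, with 8.82 TPM in CD11ccre, against 0, 2.04 and 1.46 TPM in WT, so the division of reads between them is uncertain. Rrm2, the subunit of ribonucleotide reductase that limits deoxynucleotide synthesis in S phase, stood at 31.8, 28.2 and 27.7 TPM in Lyz2cre, with 43.9 TPM in CD11ccre, against 23.5, 24.5 and 23.1 TPM in WT. It was the only member of this role above WT in all 4 libraries of the Cre lines. In Lyz2cre the difference was 0.29 ± 0.12 (SE, adjusted p = 0.205 in limma). In CD11ccre it was 0.86 (95% interval 0.45 to 1.28) with an adjusted p of 0.0509 in limma, just above the threshold of 0.05. Median-of-ratios scaling gave an adjusted p of 0.0198 there, and the range over 16 alternatives was 0.0198 to 0.151. Its partner Rrm1 was within 18.2 to 23.1 TPM in all libraries. Tk1, thymidine kinase of the salvage pathway, stood at 25.3, 23.4 and 15.5 TPM in Lyz2cre, with 25.6 TPM in CD11ccre, against 26.5, 34.5 and 23.1 TPM in WT, with overlapping ranges. Tyms, which makes thymidylate, ran from 14.8 to 17.6 TPM in Lyz2cre and was at 11.5 TPM in CD11ccre, against 11.1 to 30.7 TPM in WT.

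None of the 14 mitotic genes passed the test in either Cre line. In Lyz2cre 11 differences were negative and 3 positive, with a median of -0.28, against -0.16 over all genes tested, and in CD11ccre 8 were negative and 6 positive with a median of -0.14, against -0.29. Mki67, whose product Ki-67 coats mitotic chromosomes and marks cycling cells, stood at 8.76, 10.03 and 10.2 TPM in Lyz2cre, with 9.11 TPM in CD11ccre, against 11.3, 11.4 and 15.0 TPM in WT. All WT libraries were above all of the Cre lines, and the Lyz2cre difference was -0.34 (95% interval -0.75 to 0.07, adjusted p = 0.279 in limma). Of all genes tested, 50.5% were likewise below all WT libraries in CD11ccre and 23.3% in Lyz2cre. Top2a, the topoisomerase that untangles sister chromatids, stood at 39.3, 42.2 and 31.2 TPM in Lyz2cre, with 35.0 TPM in CD11ccre, against 45.2, 43.3 and 42.1 TPM in WT. Cdk1, the main mitotic kinase, stood at 22.4, 19.8 and 22.8 TPM in Lyz2cre, with 21.2 TPM in CD11ccre, against 21.7, 25.6 and 42.8 TPM in WT. Birc5 (survivin), of the chromosomal passenger complex, stood at 18.4, 30.5 and 15.4 TPM in Lyz2cre, with 29.3 TPM in CD11ccre, against 27.98, 31.7 and 33.6 TPM in WT. For Cdk1 and Birc5 the Lyz2cre and WT ranges overlapped, as they did by a small margin for Top2a, and 1 WT library stood above the other 6 libraries for Cdk1.

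The other mitotic genes had differences of both signs, and those named here were chosen after their values were seen. Cenpa, the centromeric histone H3 variant, stood at 15.2, 23.8 and 19.0 TPM in Lyz2cre, with 20.1 TPM in CD11ccre, against 24.7, 28.4 and 29.2 TPM in WT, and Plk1, a mitotic kinase, was also lower in all 3 Lyz2cre libraries than in any WT library. Bub1b, of the spindle checkpoint, stood at 24.0, 21.6 and 20.7 TPM in Lyz2cre, with 20.6 TPM in CD11ccre, against 17.2, 18.4 and 18.4 TPM in WT, so that it lay above WT in every library of the Cre lines. The adjusted p in limma for Lyz2cre was 0.153 for Cenpa, 0.247 for Plk1 and 0.246 for Bub1b. Ccnb1, which encodes the CDK1 partner cyclin B1, stood at 9.48, 8.73 and 9.20 TPM in Lyz2cre, with 17.2 TPM in CD11ccre, against 9.18, 6.61 and 5.94 TPM in WT. The CD11ccre value was 2.38 times the WT mean, with a difference of 1.16 (95% interval 0.52 to 1.81, adjusted p = 0.0709 in limma), and the adjusted p was 0.0430 under median-of-ratios scaling. A processed copy, Ccnb1-ps, is annotated, so the division of Ccnb1 reads is uncertain. Its relative Ccnb2 was within 14.3 to 22.5 TPM in Lyz2cre and at 20.4 TPM in CD11ccre, against 20.99 to 27.6 TPM in WT. The rest overlapped between Lyz2cre and WT: over all libraries the anaphase activator Cdc20 ran from 4.73 to 10.3 TPM, the checkpoint kinase Bub1 from 3.97 to 7.87 TPM, the mitotic kinases Aurka and Aurkb from 3.44 to 8.94 TPM and from 7.11 to 15.7 TPM, and Ccna2 (cyclin A2) from 9.65 to 19.8 TPM.

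**Figure D3:**
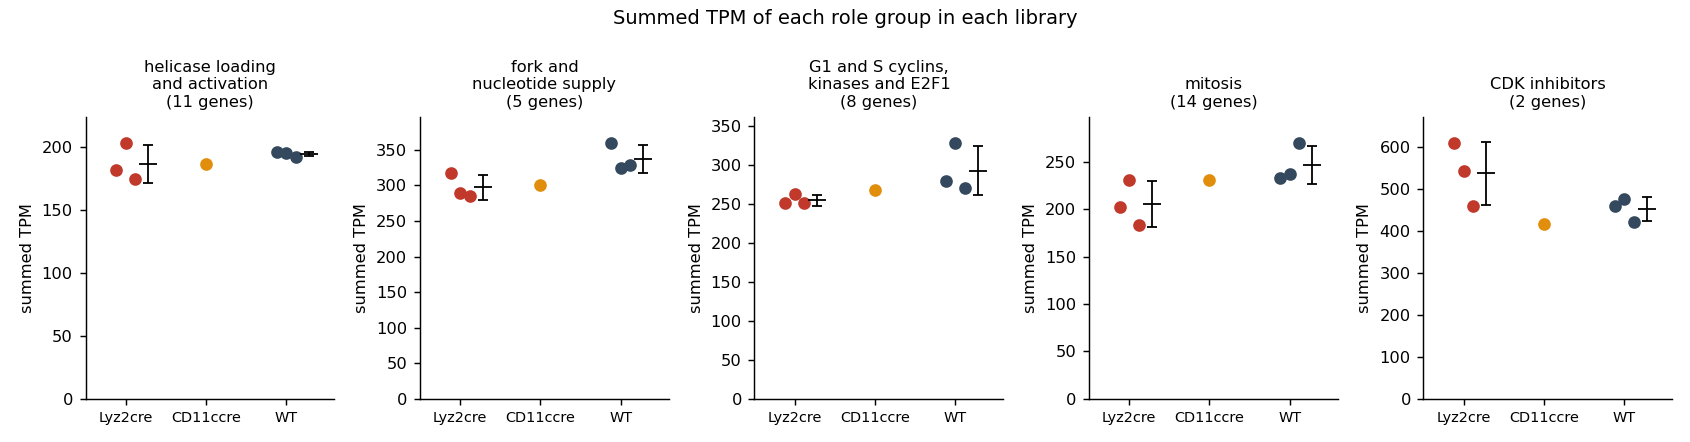
Summed TPM (y axis, from 0) of each of the 5 roles in every library of Lyz2cre, CD11ccre and WT; points are libraries, and bars are the mean and SD where n = 3. The genotypes overlap for the helicase role, while all Lyz2cre and CD11ccre sums lie below all WT sums for the fork, the G1 and S and the mitosis roles. The sums are not rescaled.

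Summed by role, differences were small beside the levels. The fork and nucleotide genes summed to 317, 289.9 and 285 TPM in Lyz2cre, with 300.4 TPM in CD11ccre, against 359.6, 324 and 328 TPM in WT. The mitotic genes summed to 203, 232 and 183 TPM in Lyz2cre, with 231 TPM in CD11ccre, against 233, 237 and 270.2 TPM in WT. Both sums were lower in all libraries of the Cre lines than in any WT library. All 40 genes together averaged 1482 ± 113 TPM in Lyz2cre, stood at 1402 TPM in CD11ccre and averaged 1523 ± 40.5 TPM in WT (SD, n = 3 where given), and Cdkn1a and Pcna made up the largest parts of these sums. Without those 2 genes, the sums ran from 739.8 to 828 TPM in Lyz2cre and were at 815 TPM in CD11ccre, against 855 to 922 TPM in WT, so that all libraries of the Cre lines were below all WT libraries. The Lyz2cre mean of this sum was 0.89 of the WT mean. The median log2 difference of all genes tested was also negative, at -0.16 in Lyz2cre and -0.29 in CD11ccre. None of these sums was rescaled for that shift. The median-of-ratios factors were 1.08 to 1.13 in WT, 0.931 to 0.997 in Lyz2cre and 0.881 in CD11ccre. Dividing by them would lower the WT sums and raise the others. The separation of the unscaled sums is therefore not read as a difference in these genes. The CDK inhibitors summed to 538 ± 75.3 TPM in Lyz2cre, 418 TPM in CD11ccre and 453 ± 29.3 TPM in WT (SD, n = 3 where given), with overlapping libraries.

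Neither CDK inhibitor was called. Cdkn1a, which encodes the p53 target p21, was the most abundant member in every library, at 561, 497 and 409.5 TPM in Lyz2cre, with 390.4 TPM in CD11ccre, against 411, 417 and 375 TPM in WT. The difference in Lyz2cre was 0.28 (95% interval -0.04 to 0.59, adjusted p = 0.250 in limma), and the lowest Lyz2cre library lay within the WT range. Cdkn1b, which encodes p27, stood at 49.2, 47.1 and 50.2 TPM in Lyz2cre, with 27.6 TPM in CD11ccre, against 49.6, 60.7 and 45.7 TPM in WT. The CD11ccre library was the lowest of the 7, with a difference from WT of -0.88 (95% interval -1.34 to -0.42, adjusted p = 0.0627 in limma). Against Lyz2cre the CD11ccre difference in Cdkn1b was -0.80, with an adjusted p of 0.645 in limma.

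As a group, the 39 tested genes were set beside all genes tested. The median size of the difference, whatever its sign, was 0.25 in Lyz2cre against WT, beside 0.30 over all genes tested, and 0.36 in CD11ccre against WT, beside 0.41. In Lyz2cre 11 differences were positive and 28 negative, with a median of -0.19. The 95% interval lay inside a 2-fold change either way for 34 of the 39 (87.2%) in Lyz2cre, beside 63.2% of all genes tested, and for 16 (41.0%) in CD11ccre, beside 36.2%. Rrm2 and Bub1b were above WT in all Lyz2cre libraries without overlap, which is 2 of 39 (5.13%), beside 7.45% of all genes. Another 9 were below WT without overlap (23.1%), beside 23.3% of all genes. After median-of-ratios scaling, which brought the median of all genes to 0.00, 5 were above without overlap (12.8%), beside 13.9% of all genes, and 2, Ccnd2 and Plk1, were below (5.13%), beside 12.4%. Set against the median of all genes, 18 members were above it and 21 below it in Lyz2cre, and 23 above and 16 below in CD11ccre. The sign changed under at least 1 other scaling for 7 members in Lyz2cre, among them Mcm2, Cdt1 and Ccna2, and for 11 in CD11ccre, among them Pcna, Top2a and Cdkn1a. Among all called genes, the share called higher in Lyz2cre was 32.0% as deposited and 62.4% after median-of-ratios scaling, and in CD11ccre 31.0% and 64.3%.

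**Figure D4:**
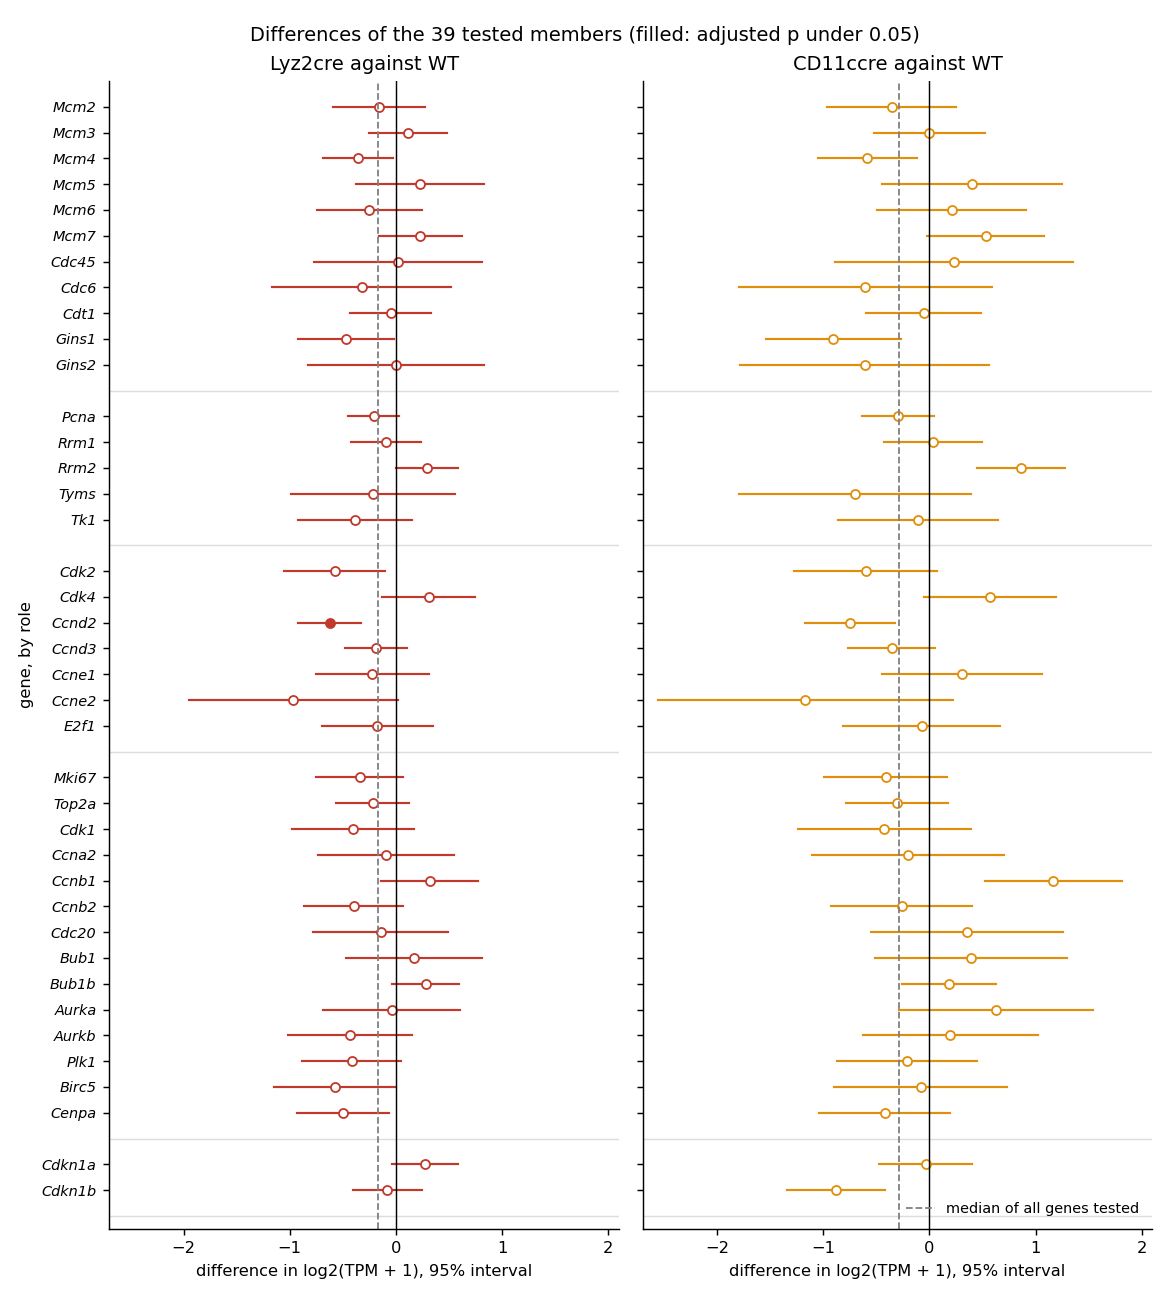
Difference in log2(TPM + 1) with its 95% interval (x axis) for the 39 tested members by role (rows), Lyz2cre against WT on the left and CD11ccre against WT on the right; filled points have an adjusted p under 0.05 in limma and dashed lines mark the median of all genes tested. Ccnd2 in Lyz2cre is the single filled point, and the intervals of the lone CD11ccre library are wider.

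**Figure D5:**
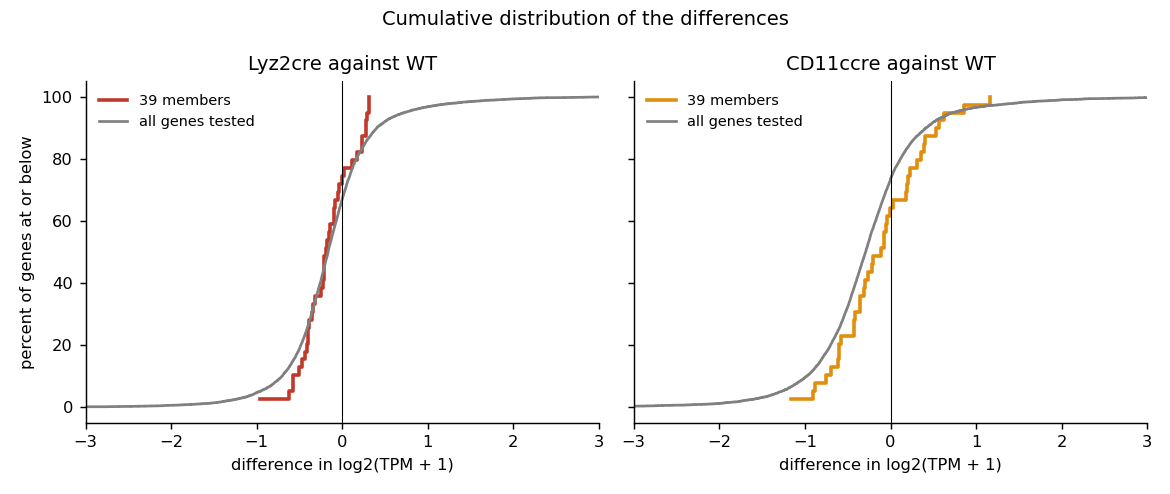
Cumulative percent of genes (y axis) at or below a difference in log2(TPM + 1) (x axis) for the 39 tested members (coloured) and all genes tested (grey), Lyz2cre against WT on the left and CD11ccre against WT on the right. The members' median is -0.19 beside -0.16 for all genes in Lyz2cre, and -0.11 beside -0.29 in CD11ccre.

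Other genes of the same pathways were read from 5 lists, and few of them passed the test. Over all genes tested in Lyz2cre against WT, 2.17% were called higher, 4.6% were called lower, 67.0% of differences were negative and the median was -0.16, beside which each list is read. Of 42 tested replication genes, 0 were higher and 2 were lower in Lyz2cre, with a median difference of -0.19. Rpa3, the smallest subunit of the single-strand DNA binding complex RPA, stood at 15.6, 15.8 and 19.9 TPM in Lyz2cre, with 13.8 TPM in CD11ccre, against 40.1, 35.3 and 39.3 TPM in WT. It fell in both Cre lines, by 1.12 on the log2 scale in Lyz2cre (adjusted p = 0.00888 in limma) and by 1.41 in CD11ccre (adjusted p = 0.0239). The Lyz2cre call held in all 17 alternatives and the CD11ccre call in 7 of 16. Leaving out any WT library or Lyz2cre replicate 1 or 2 ended the CD11ccre call. Median-of-ratios scaling (difference -1.10) and quantile normalization (-1.09) ended it too. Orc6, of the origin recognition complex, fell to 9.23, 9.42 and 10.1 TPM in Lyz2cre and was at 8.32 TPM in CD11ccre, against 15.8, 19.4 and 14.6 TPM in WT, with a Lyz2cre difference of -0.72 (adjusted p = 0.0455 in limma).

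Among further mitosis genes 0 of 69 were higher and 2 were lower in Lyz2cre, 58 differences (84.1%) were negative and the median was -0.27. Both called genes encode small subunits that bind cyclin-dependent kinases. Cks2 fell to 58.5, 41.1 and 50.3 TPM in Lyz2cre, with 37.2 TPM in CD11ccre, against 97.1, 116 and 114 TPM in WT, by 1.12 on the log2 scale in Lyz2cre (adjusted p = 0.00997 in limma) and by 1.52 in CD11ccre (adjusted p = 0.0224). The Lyz2cre call held in 15 of 17 alternatives and ended without WT replicate 2 (adjusted p = 0.0562) or Lyz2cre replicate 3 (0.0515), and the CD11ccre call, which held in 10 of 16 alternatives, ended without any 1 of the WT libraries (0.0597 to 0.0783). Cks1b fell to 38.3, 45.7 and 38.3 TPM in Lyz2cre and was at 41.4 TPM in CD11ccre, against 58.0, 70.1 and 62.5 TPM in WT, with a Lyz2cre difference of -0.63 (adjusted p = 0.0392 in limma). The Lyz2cre calls of Cks1b and Orc6 each held in 5 of 17 alternatives, and leaving out any 1 of the 6 WT and Lyz2cre libraries ended both (adjusted p from 0.0683 to 0.133 for Cks1b and from 0.0638 to 0.131 for Orc6). Each of the 3 other scalings also ended both (adjusted p in limma from 0.107 to 0.127 for Cks1b and from 0.108 to 0.128 for Orc6).

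Upstream of the cycle, 1 of 32 RB, E2F and CDK control genes was lower in Lyz2cre and 0 were higher, with a median of -0.08. It was Ccnh, the cyclin of the CDK-activating kinase, at 26.0, 15.0 and 20.6 TPM in Lyz2cre, with 31.0 TPM in CD11ccre, against 38.8, 42.5 and 48.8 TPM in WT (difference -1.07 in Lyz2cre, adjusted p = 0.0304 in limma), a call that held in 6 of 17 alternatives. Leaving out any library but Lyz2cre replicate 1 ended that call (adjusted p from 0.0736 to 0.104). In the list of p53 and its targets, 1 of 20 was lower in Lyz2cre and 0 were higher, with a median of 0.12. Perp, which encodes a membrane protein of p53-induced death and of desmosomes, fell to 119, 95.9 and 91.0 TPM in Lyz2cre and was at 103 TPM in CD11ccre, against 162, 144 and 186 TPM in WT (difference -0.68, adjusted p = 0.0409 in limma). This call held in 5 of 17 alternatives and ended without any 1 of the 6 libraries (adjusted p from 0.0573 to 0.141).

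The list of self-renewal and growth factor input was the only one of the 5 with genes called higher, 2 of 16 in Lyz2cre, with 0 called lower and a median of -0.03. Csf2rb, the signalling beta chain of the GM-CSF receptor, on which alveolar macrophages depend, stood at 349.9, 359 and 300.3 TPM in Lyz2cre, with 257 TPM in CD11ccre, against 198, 181 and 206 TPM in WT. All 4 libraries of the Cre lines were above all WT libraries, and it rose by 0.78 on the log2 scale in Lyz2cre (adjusted p = 0.0110 in limma). Leaving out WT replicate 2 raised the adjusted p to 0.0511, and leaving out Lyz2cre replicate 1 or 2 raised it to 0.0515 or 0.0504. Its near copy Csf2rb2 ran from 50.1 to 66.2 TPM in Lyz2cre and was at 44.5 TPM in CD11ccre, against 50.8 to 59.4 TPM in WT, so reads split between them are uncertain. Tgfbr2, a TGF-beta receptor, stood at 151, 166 and 166 TPM in Lyz2cre, with 138 TPM in CD11ccre, against 112.08, 94.7 and 123 TPM in WT (difference 0.55 in Lyz2cre, adjusted p = 0.0463 in limma). Leaving out WT replicate 1 or 2 or any Lyz2cre library ended that call (adjusted p from 0.1001 to 0.147), which held in 9 of 17 alternatives. In CD11ccre against WT, 1 replication gene (Rpa3) and 1 mitosis gene (Cks2) were lower and no gene of the 5 lists was higher. The median differences there were -0.12 for replication, -0.28 for mitosis, -0.21 for RB, E2F and CDK control, -0.09 for p53 and its targets and -0.14 for self-renewal, beside -0.29 for all genes tested.

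Between the Cre lines, 0 of the 39 members passed the test (CD11ccre against Lyz2cre), and 0.114% of all genes were called in either direction. At an unadjusted p under 0.05 there were 3 members (Rrm2, Ccnb1 and Cdkn1b), which is 7.69%, beside 6.1% of all genes. The 95% interval lay inside a 2-fold change for 21 of the 39, so larger differences remain possible for the others.

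Markers of other cell types that the sort could hold were summed in each library. The summed TPM of 10 T and NK cell markers was 0.76 to 2.68 in Lyz2cre, 1.53 in CD11ccre and 2.94 to 8.73 in WT, with Ncr1 and Klrb1c at 0 in all libraries. The 8 B and plasma cell markers summed to 0.42 to 2.76 TPM in Lyz2cre, 1.70 TPM in CD11ccre and 6.96 to 20.4 TPM in WT. The 8 neutrophil markers summed to 125 to 168 TPM in Lyz2cre, 151 TPM in CD11ccre and 54.8 to 107 TPM in WT, with Ly6g and Camp at 0, and the 9 monocyte and dendritic cell markers to 3.04 to 5.83 TPM in Lyz2cre, 1.95 TPM in CD11ccre and 5.12 to 12.6 TPM in WT. The 8 alveolar type 2 markers summed to 77.7 to 96.5 TPM in Lyz2cre, 71.4 TPM in CD11ccre and 87.8 to 94.0 TPM in WT. The T and NK cell and B cell sums were lower in all libraries of the Cre lines than in any WT library, as Ccnd2 was, and the neutrophil sums were higher. Only 1 of the 10 T and NK cell markers and 2 of the 8 B and plasma cell markers reached the minimum for testing. Of the 5 neutrophil markers tested, 3 differences were positive and 2 negative in each Cre line. The part of these markers in the results was not tested.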

How the data were processed

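Poly(A) RNA of sorted mouse alveolar macrophages was sequenced single-end from strand-specific libraries, per the labels' protocols, in 7 libraries grouped by their titles. The authors deposited TPM for 47643 genes. Trimming, alignment and quantification tools are cutadapt 2.3, STAR 2.7.0d and RSEM 1.3.1 on mm10, per the submitters' processing notes; neither the annotation nor the strand setting is given in the sources used here. TPM keeps no depth, so no counting interval is given.

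From the deposited TPM, log2(TPM + 1) of the 11397 genes with a mean of at least 1 TPM was fitted in limma 3.58.1 (R 4.3.3) with all 7 libraries, a coefficient per genotype and a variance trend (degrees of freedom: 4 residual, 3.35 prior). Benjamini-Hochberg adjustment ran over every gene tested, two-sided, and calls were made under 0.05. TPM means were also compared by exact permutation. The fit was tested on simulated data. The 40 members and the pathway and marker lists (294 genes, all matched) were chosen with earlier results of these data known. The values of 1 marker list are not reported here. Values per library are given for called members, the 3 of highest mean in each role, Mki67, the D cyclins and both inhibitors, and up to 4 called genes per direction of each pathway list (2 in CD11ccre). Coordinates and overlaps come from GENCODE M21 (mm10), in which 18 of the 40 members overlap another gene, 16 of them on the other strand. Promoter sequences come from RefSeq (GRCm38.p6). At most 1.79% of tested values were equal between a pair of libraries. Alternatives were 2 pseudocounts, 2 filters, 3 scalings, 2 forms of the moderated test, a replicate block and leaving out libraries.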

Additional observations from a re-analysis of the deposited data

How the results depend on the processing

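The member call in Lyz2cre against WT (1 lower, Ccnd2) became 0 with no filter on low values, median-of-ratios scaling, quantile normalization, rescaling without Ftl1, Fth1, Chil3 and Lyz2, limma without the trend and the replicate block, and 0 to 0 on leaving out a WT or Lyz2cre library; it stayed 1 without CD11ccre. In CD11ccre against WT, 0 members higher became 1 with no filter, a mean of at least 5 TPM, rescaling or robust fitting, and 2 with median-of-ratios scaling or quantile normalization; 0 lower became 1 with a mean of at least 5 TPM. Over all genes, 247 higher and 524 lower in Lyz2cre became 137 and 205 with no filter; the lower count was 205 with median-of-ratios scaling, 213 with quantile normalization, 215 with rescaling, 247 without the trend and 219 with the replicate block. Leaving out a WT or Lyz2cre library gave 101 to 168 higher and 99 to 273 lower, and leaving out CD11ccre 246 and 532. In CD11ccre, 102 higher and 227 lower became 300 higher with no filter, 346 lower with a mean of at least 5 TPM, 85 lower with median-of-ratios scaling, 79 lower with quantile normalization, 95 lower with rescaling, and 61 and 61 without the trend; leaving out a WT or Lyz2cre library gave 15 to 59 higher and 8 to 111 lower. The 13 genes called between the Cre lines became 210 with no filter and 1 to 17 on leaving out a WT or Lyz2cre library. The share called higher was 59.7% in Lyz2cre and 60.7% in CD11ccre after quantile normalization, and 59.7% and 56.2% after rescaling. The causes of these changes were not tested, though both the block and a smaller set of libraries leave fewer residual degrees of freedom.

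Same-numbered WT and Lyz2cre libraries deviated from their group means with correlations of -0.01, 0.04 and 0.07. Differently numbered libraries gave -0.10 to 0.06. No pairing by number was seen, though these correlations cannot show that libraries were handled separately. With the replicate block, Ccnd2 had an adjusted p of 0.0597 in limma, and CD11ccre against WT had 8 genes higher and 13 lower and CD11ccre against Lyz2cre 3. Unknown depth limits the precision of the genes under 10 TPM most, and 1 library limits every CD11ccre value.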

Other observations

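A few growth and cell cycle control genes outside the 40 are given as values, chosen after they were seen. Myc, whose product drives growth and division, stood at 7.72, 8.91 and 3.14 TPM in Lyz2cre, with 5.27 TPM in CD11ccre, against 10.4, 18.0 and 19.4 TPM in WT (difference -1.21 in Lyz2cre, adjusted p = 0.106 in limma). Cdk6, the other kinase of D cyclins, stood at 7.16, 8.13 and 8.11 TPM in Lyz2cre, with 6.38 TPM in CD11ccre, against 12.8, 11.3 and 19.6 TPM in WT (adjusted p = 0.0839 in limma). Gadd45a, a p53 target of the DNA damage response, stood at 26.1, 24.7 and 22.8 TPM in Lyz2cre, with 15.1 TPM in CD11ccre, against 17.3, 12.04 and 9.32 TPM in WT (adjusted p = 0.0529 in limma). None of the 3 passed the test. For all 3 the Lyz2cre and WT libraries did not overlap, beside 23.3% of all genes tested below WT and 7.45% above. Their lists held both signs in Lyz2cre. There were 14 positive and 18 negative differences for RB, E2F and CDK control, 11 and 9 for p53 and its targets, and 7 and 9 for self-renewal. Cdkn2a, the locus of p16 and p19 ARF, was too low to test and was listed at 0.28, 2.73 and 1.11 TPM in Lyz2cre, with 2.08 TPM in CD11ccre, against 0.68, 0 and 0 TPM in WT.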
